A study of Rattus norvegicus with 12 samples.

Results

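Small leucine-rich proteoglycans are a family of secreted matrix proteins, and 8 of them, Dcn, Lum, Bgn, Ogn, Fmod, Omd, Aspn and Prelp, are described here across 12 brain RNA-seq libraries. The members were the rows of the deposited table of raw counts whose symbol is one of these 8 names, and the table held 1 row for each, 8 of 31177 rows. All 8 passed the filter on low counts, as did 18850 rows in all. The libraries formed 3 groups of 4. AD-HFD combined a model of Alzheimer's disease (AD) with a high-fat diet, AD was the model without the diet, and Sham was the control. The study's stated purpose was to see how the disease model and added metabolic stress alter the brain transcriptome. The labels give no strain, sex, age, method of modelling, diet composition or duration, and no brain region. They call the animals mice, whereas the organism is entered as Rattus norvegicus and the identifiers are rat Ensembl IDs, so the genes are treated as rat genes. Nothing in the labels states that the libraries came from separate animals, so the p-values cover only the spread among these libraries, which may be technical. A group given the diet without the disease model was not analysed here. The AD libraries enter 2 of the 3 comparisons, as do the AD-HFD and the Sham libraries, so the comparisons are not independent of each other.

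The proteins of this family fold around leucine-rich repeats, bind collagen fibrils and set fibril spacing and diameter. Most carry chondroitin or dermatan sulfate chains or keratan sulfate chains, and several bind growth factors of the TGF-beta group. In the brain, their transcripts are known mainly from the fibroblasts of the meninges and of the spaces around larger vessels, a thin layer at the edge of the tissue. In these bulk libraries the cell source of a transcript was not measured, and fewer cells of a type cannot be told apart from less RNA per cell.

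The family is grouped on a few chromosomes. In the RefSeq gene order of the rat assembly GRCr8, Dcn and Lum are neighbours on chromosome 7 and are followed by the relatives Kera and Epyc. Optc, Prelp and Fmod follow each other on chromosome 13. Ogn, Omd and Aspn follow each other on chromosome 17 and lie within the span of Cenpp, a gene on the opposite strand. Whether counting used strand is not given in the sources used here. Without strand, reads of Ogn, Omd and Aspn cannot be told apart from reads of Cenpp on the other strand. Spans of Dcn, Prelp and Fmod overlap long noncoding RNA loci, with the same uncertainty. Bgn lies on chromosome X.

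Of the 8 members, 5 matched a promoter in the RefSeq table of GRCr8, which were Lum, Ogn, Fmod, Omd and Aspn. Dcn, Bgn and Prelp were not among the matches. The 250 bases before the annotated start are shown for Lum, the matched member that rose, and for Ogn and Fmod, in which no difference passed the test. Capitals mark matches to 5 motifs searched on both strands. These were the TATA box TATAAA, the GC box GGGCGG of Sp factors, the CCAAT box, the AP-1 motif TGANTCA and the TEAD motif GGAATG. The Lum window is chr7:34245456-34245705 on the plus strand, the Ogn window chr17:15258996-15259245 on the minus strand and the Fmod window chr13:48045317-48045566 on the plus strand, each printed 5′ to 3′ in the direction of its gene.
Lum: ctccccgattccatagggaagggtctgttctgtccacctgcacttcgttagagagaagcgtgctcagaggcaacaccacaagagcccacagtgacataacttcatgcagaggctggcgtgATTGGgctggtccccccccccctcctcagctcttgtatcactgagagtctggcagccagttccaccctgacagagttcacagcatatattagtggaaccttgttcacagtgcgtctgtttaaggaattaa
Ogn: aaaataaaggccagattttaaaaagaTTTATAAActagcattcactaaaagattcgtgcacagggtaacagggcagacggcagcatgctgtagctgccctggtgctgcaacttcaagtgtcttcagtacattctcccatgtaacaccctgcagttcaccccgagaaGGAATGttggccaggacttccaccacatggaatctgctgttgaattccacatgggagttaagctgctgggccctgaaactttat
Fmod: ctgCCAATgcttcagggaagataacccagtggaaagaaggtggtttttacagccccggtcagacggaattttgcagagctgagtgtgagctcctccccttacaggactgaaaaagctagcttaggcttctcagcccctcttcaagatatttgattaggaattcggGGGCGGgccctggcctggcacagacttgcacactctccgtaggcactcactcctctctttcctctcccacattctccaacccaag

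The Lum window held CCAAT on the opposite strand, read as ATTGG, 130 to 126 bases before the start. The Ogn window held GGAATG 84 to 79 bases before the start. It also held TATAAA on both strands, at 224 to 219 bases on the opposite strand and at 222 to 217 bases as printed, and these matches overlap. The Fmod window held CCAAT 247 to 243 bases and GGGCGG 85 to 80 bases before the start. The windows of Omd and Aspn held none of the 5 motifs. Of 33469 promoters of the same length, 34.0% held CCAAT, 30.5% held GGGCGG, 12.9% held TATAAA, 12.1% held GGAATG and 6.34% held TGANTCA. The 5 windows had a GC content of 52.8% for Lum, 52.8% for Fmod, 46.0% for Ogn, 38.8% for Omd and 34.8% for Aspn, beside a median of 51.2% over all promoters. No motif was shared by all 5 members.

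Total counts ran between 26668974 and 35351792 per library, and levels are given in CPM, the counts scaled to library size. Several libraries stood apart within their group. The thalamic transcription factor gene Tcf7l2 was at 391, 99.1 and 223 CPM in the AD libraries 1, 2 and 4, against 6.25 CPM in AD-3, 5.72 to 14.1 CPM in AD-HFD and 5.17 to 9.70 CPM in Sham. Ttr encodes the main protein that choroid plexus secretes. AD-HFD-1 held 9695 CPM of it and AD-HFD-2 held 484 CPM, Sham-2 held 4203 CPM and Sham-3 held 4286 CPM, and the other 8 libraries held 0.701 to 8.32 CPM. The blood gene Hba-a2 was at 736 CPM in AD-HFD-4 and at 27.5 to 194 CPM in the rest. Member results are therefore also given with AD-3 as the sole AD library, a fit in which that library is assumed to vary like the others, and without the triple of Sham-2, Sham-3 and AD-HFD-1. Values that stayed within 1.5 times of the full fit are given only where a call ended.

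Dcn, Lum and Bgn rose in AD-HFD libraries against Sham, by 7.14-fold, 3.40-fold and 4.03-fold. Prelp fell in AD libraries against Sham, by 1.51 on the log2 scale, and its level in AD-HFD libraries was near that of Sham. Fmod had low levels in most AD libraries, and Ogn had low levels in AD-3 and AD-4. Both had wide ranges in AD-HFD and Sham libraries, and no difference in them passed the test. Omd and Aspn had few counts, and no difference in them passed the test.

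In AD-HFD against Sham, 3 of 8 members rose and 0 fell at an adjusted p under 0.05, while 19.7% of all tested genes rose and 32.7% were called in either direction. The same 3 members had an unadjusted p under 0.05, as did 45.4% of all tested genes. The median log2 fold change of the 8 was 0.65, beside 0.033 over all tested genes. Dcn and Bgn had every AD-HFD library above every Sham library, a pattern found in 18.9% of all tested genes. Between AD and Sham, 1 of 8 members fell and 0 rose, while 3.16% of all tested genes fell and 6.23% were called in either direction. Fmod joined Prelp at an unadjusted p under 0.05, as did 24% of all tested genes. The members' median was -0.40, beside 0.057 over all tested genes. Prelp had every AD library below every Sham library, a pattern found in 11.3% of all tested genes.

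In AD-HFD against AD, 0 of 8 members passed edgeR's quasi-likelihood test, where 0.0106% of all tested genes did, namely Lipm and Nr4a1. All 8 members had a positive log2 fold change, with a median of 1.77 beside 0.04 over all tested genes. That of Omd was 0.03 ± 0.60 (SE), and it changed sign in other fits. At an unadjusted p under 0.05, 6 of 8 members were past the threshold, all higher, while 17.1% of all tested genes were past it and higher. At an adjusted p under 0.1, Dcn, Lum, Bgn and Prelp were called, while 10.4% of all tested genes were called higher. DESeq2 called 5 members at an adjusted p under 0.05, all higher, adding Fmod to these 4, while it called 9.43% of all its tested genes higher. Dcn, Lum and Prelp had every AD-HFD library above every AD library, a pattern found in 2.72% of all tested genes.

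**Figure D1:**
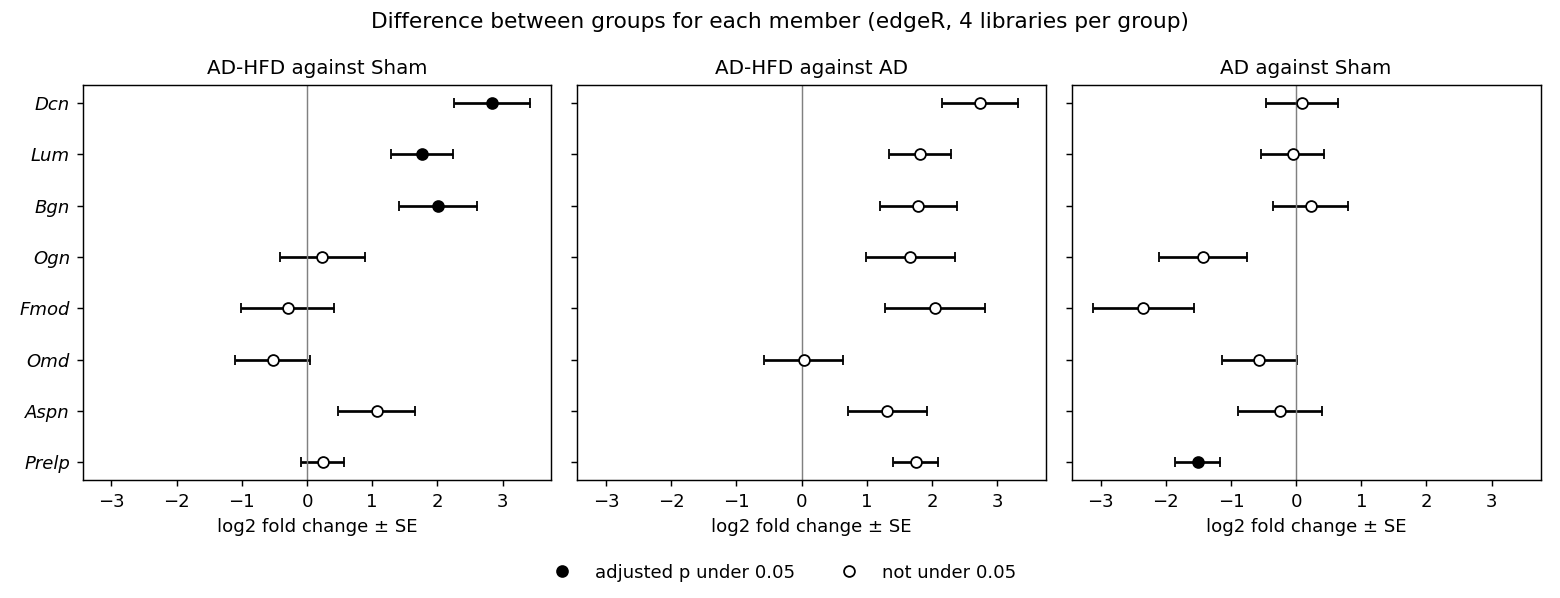
Log2 fold change ± SE of each member in the 3 comparisons (edgeR, 4 libraries per group), with filled points where the adjusted p is under 0.05. Dcn, Lum and Bgn are filled in AD-HFD against Sham, and Prelp is filled in AD against Sham. No point is filled in AD-HFD against AD, where all 8 lie above 0, Omd by 0.03 ± 0.60.

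Decorin (Dcn), which binds type I collagen and TGF-beta, showed the largest difference among the members between AD-HFD and Sham. It was at 57.1, 104, 39.6 and 246 CPM in the AD-HFD libraries, at 12.6, 19.4, 21.0 and 13.8 CPM in the AD libraries, and at 6.54, 27.1, 8.81 and 20.3 CPM in the Sham libraries. The lowest AD-HFD library was above the highest of the other 8 libraries, and AD and Sham overlapped. Group means were 112 ± 93.7 CPM in AD-HFD, 16.7 ± 4.13 CPM in AD and 15.7 ± 9.68 CPM in Sham (SD, n = 4 each). Dcn rose in AD-HFD against Sham, with a log2 fold change of 2.83 ± 0.59 (SE, adjusted p = 0.00597). In AD-HFD against AD the log2 fold change was 2.74 ± 0.58, a 6.69-fold higher level that did not pass (adjusted p = 0.0605). AD differed from Sham by 0.09 ± 0.56 on the log2 scale, less than its SE (adjusted p = 0.941).

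AD-HFD-4 held the highest Dcn level of all libraries. Without it the log2 fold change against Sham was 2.10 (adjusted p = 0.0134), and Dcn was called in 12 of 12 fits that left out 1 library. The call was lost when Sham-2, Sham-3 and AD-HFD-1 were all left out (3.19, adjusted p = 0.0901). Against AD, the difference without AD-HFD-4 was 2.004 (adjusted p = 0.141), and Dcn was called when AD-3 (2.87, adjusted p = 0.0114) or AD-HFD-3 (3.02, adjusted p = 0.00626) was left out.

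Lumican (Lum), a keratan sulfate proteoglycan known for its part in corneal transparency, followed Dcn at a lower count. It was at 9.47, 10.8, 6.63 and 22.8 CPM in the AD-HFD libraries, at 2.84, 5.37, 4.09 and 1.67 CPM in the AD libraries, and at 2.28, 6.68, 2.99 and 2.64 CPM in the Sham libraries. Every AD-HFD library was above every AD library, whereas AD-HFD-3 was just below Sham-2. The means were 12.4 ± 7.13 CPM in AD-HFD, 3.49 ± 1.59 CPM in AD and 3.65 ± 2.04 CPM in Sham (SD, n = 4 each). Lum rose in AD-HFD against Sham by 1.76 ± 0.47 on the log2 scale (SE, adjusted p = 0.0167). The difference from AD was 1.82 ± 0.47 (3.53-fold), which did not pass (adjusted p = 0.0605), and AD differed from Sham by -0.05 ± 0.48 (adjusted p = 0.963). The rise against Sham narrowly lost its call without Sham-1 (1.58, adjusted p = 0.0537), without Sham-4 (1.64, adjusted p = 0.0524) and without AD-HFD-4 (1.30, adjusted p = 0.0527). Against AD, Lum was called when AD-3 (1.90, adjusted p = 0.0237) or AD-HFD-3 (2.02, adjusted p = 0.0122) was dropped. Its rise against Sham was 2.35 without Sham-2, Sham-3 and AD-HFD-1 and was not called there (adjusted p = 0.0917).

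Biglycan (Bgn), the closest relative of decorin, carries chondroitin or dermatan sulfate chains and in soluble form engages the receptors TLR2 and TLR4. It was at 57.4, 109, 60.4 and 256 CPM in the AD-HFD libraries, at 15.3, 25.8, 81.6 and 17.0 CPM in the AD libraries, and at 24.7, 40.9, 24.3 and 30.0 CPM in the Sham libraries. The AD-HFD and Sham libraries did not overlap, and AD-3 stood above the other 3 AD libraries and within the AD-HFD range. The means were 121 ± 93.4 CPM in AD-HFD, 34.9 ± 31.5 CPM in AD and 30.0 ± 7.77 CPM in Sham (SD, n = 4 each). Bgn rose in AD-HFD against Sham, by 2.01 ± 0.59 on the log2 scale (SE, adjusted p = 0.0242). The difference between AD-HFD and AD was 1.79 ± 0.59 (adjusted p = 0.0818), and it was called when AD-3 (2.64, adjusted p = 0.00534) or AD-HFD-3 (2.01, adjusted p = 0.0308) was dropped.

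The rise of Bgn against Sham was called in 20 of 27 alternative fits, where that of Dcn was called in 26 of 27. The Bgn call was lost without Sham-1 (1.92, adjusted p = 0.0661), Sham-3 (1.92, adjusted p = 0.0634) or Sham-4 (2.01, adjusted p = 0.0608), although the log2 fold change moved little. It was also lost without AD-HFD-4 (1.33, adjusted p = 0.0877), without AD-HFD-3 and AD-HFD-4 (1.47, adjusted p = 0.081), and without Sham-2, Sham-3 and AD-HFD-1 (2.28, adjusted p = 0.13). AD differed from Sham by 0.22 ± 0.58 (adjusted p = 0.851). That difference was -0.63 without AD-3 (adjusted p = 0.435) and 1.44 with AD-3 as the sole AD library (adjusted p = 0.237). Between AD-HFD and AD, Bgn differed by 1.11 without AD-HFD-4 (adjusted p = 0.245) and by 0.55 with AD-3 alone (adjusted p = 0.818).

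**Figure D2:**
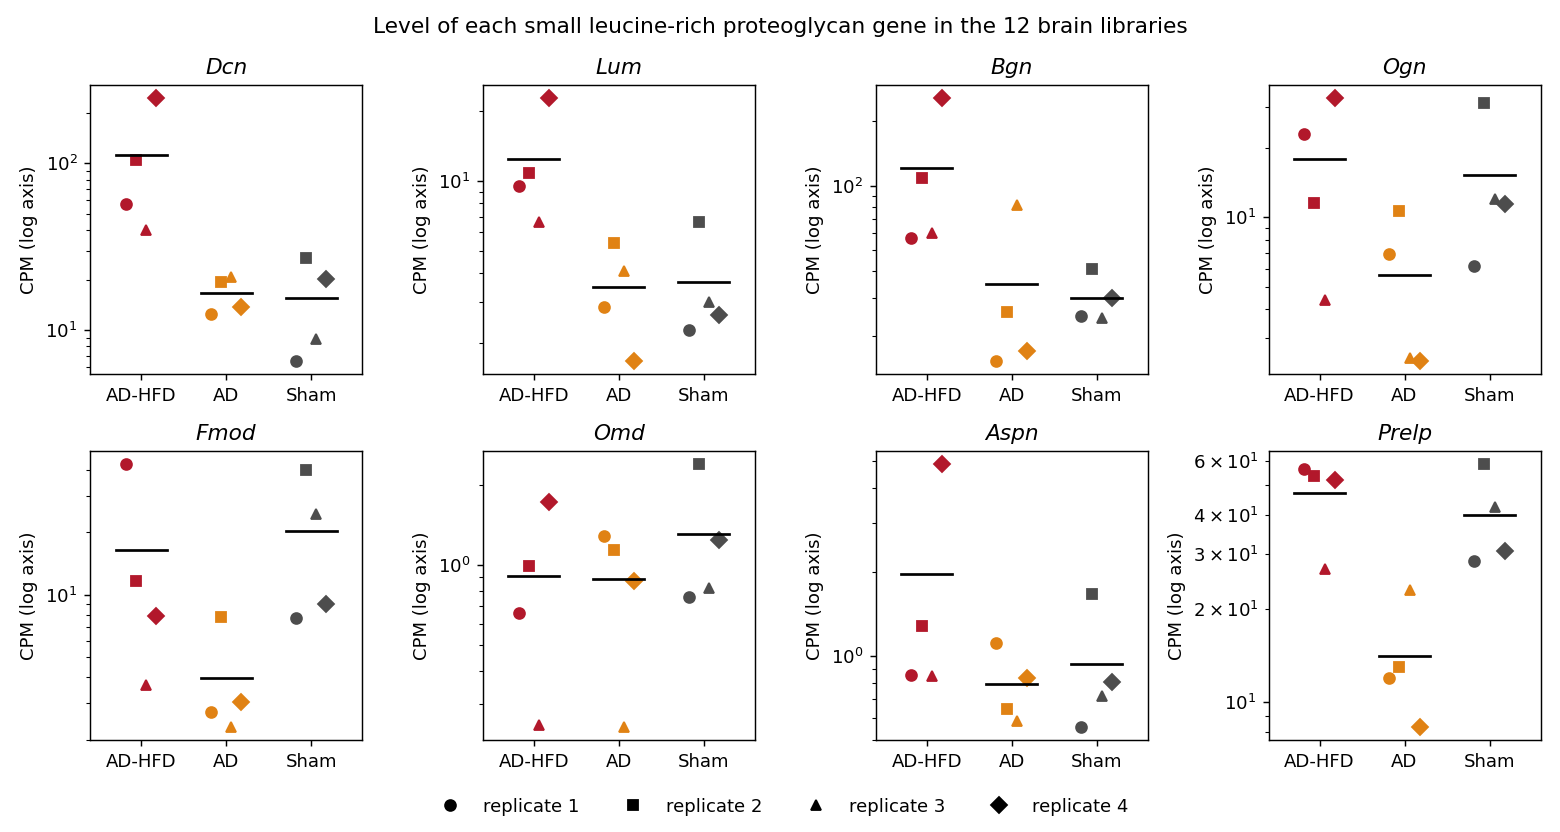
Level of each member in CPM on a log axis in the 4 libraries of AD-HFD, AD and Sham, with the marker shape giving the replicate number and a horizontal bar at the group mean. The 4 AD-HFD libraries of Dcn sit between 39.6 and 246 CPM, above the other 8, and the 4 AD libraries of Prelp sit between 8.31 and 22.9 CPM, below the other 8.

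Prelp, which binds heparan sulfate and is thought to link basement membranes to the collagen beside them, was the member called in AD against Sham. It was at 56.5, 53.5, 26.9 and 52.1 CPM in the AD-HFD libraries, at 12.0, 12.9, 22.9 and 8.31 CPM in the AD libraries, and at 28.5, 58.5, 42.5 and 30.6 CPM in the Sham libraries. Every AD library was below every library of the other groups, and AD-HFD and Sham overlapped. The means were 47.2 ± 13.7 CPM in AD-HFD, 14.0 ± 6.24 CPM in AD and 40.0 ± 13.8 CPM in Sham (SD, n = 4 each). Prelp fell in AD against Sham by 1.51 ± 0.34 on the log2 scale, 2.85-fold lower (SE, adjusted p = 0.0266). In AD-HFD against AD it was 3.36-fold higher without passing (1.75 ± 0.34, adjusted p = 0.0605), and AD-HFD differed from Sham by 0.24 ± 0.33 (adjusted p = 0.601).

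The lower Prelp level in AD was sensitive to which libraries were used. Leaving out AD-3, the AD library with little Tcf7l2, gave -1.85 (adjusted p = 0.00498). Keeping AD-3 as the sole AD library gave -0.81 (adjusted p = 0.354), and 1.04 for AD-HFD against AD (adjusted p = 0.722). The call was also lost without Sham-2 (-1.31, adjusted p = 0.0598), Sham-3 (-1.48, adjusted p = 0.0652), Sham-4 (-1.62, adjusted p = 0.0537), AD-1 (-1.42, adjusted p = 0.0616), AD-2 (-1.45, adjusted p = 0.0578) or AD-4 (-1.33, adjusted p = 0.0717). Without Sham-2, Sham-3 and AD-HFD-1 it was -1.13 (adjusted p = 0.228). Against AD, Prelp in AD-HFD was called when AD-3 (2.09, adjusted p = 0.0022) or AD-HFD-3 (1.94, adjusted p = 0.00593) was dropped.

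Fibromodulin (Fmod), which binds collagen and guides its crosslinking by lysyl oxidase, had wide ranges within groups. It was at 42.7, 11.7, 3.69 and 7.92 CPM in the AD-HFD libraries, at 2.74, 7.79, 2.31 and 3.05 CPM in the AD libraries, and at 7.74, 40.0, 24.4 and 9.04 CPM in the Sham libraries. AD-HFD-1, Sham-2 and Sham-3 were the highest, and all 3 groups overlapped, AD and Sham only through AD-2 and Sham-1. The means were 16.5 ± 17.8 CPM in AD-HFD, 3.97 ± 2.56 CPM in AD and 20.3 ± 15.2 CPM in Sham (SD, n = 4 each). The log2 fold change was -2.34 ± 0.77 in AD against Sham (unadjusted p = 0.0102, adjusted p = 0.0912), 2.05 ± 0.77 in AD-HFD against AD (adjusted p = 0.105) and -0.30 ± 0.72 in AD-HFD against Sham (adjusted p = 0.771). The difference between AD and Sham was called by DESeq2 (adjusted p = 0.015) and when those groups were fitted alone (adjusted p = 0.0405). It was also called when AD-HFD-1 (adjusted p = 0.0498) or AD-HFD-3 (adjusted p = 0.0499) was dropped.

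The Fmod values turned on the same 3 libraries that held the most Ttr, AD-HFD-1, Sham-2 and Sham-3. Without them the difference between AD and Sham was -1.11 (adjusted p = 0.375). Without AD-HFD-1 alone, the difference between AD-HFD and AD was 0.96, and that between AD-HFD and Sham was -1.38. Without all 3, AD-HFD and AD differed by 0.91 (adjusted p = 0.334). With AD-3 as the sole AD library, Fmod differed by 2.83 between AD-HFD and AD (adjusted p = 0.722) and by -3.13 between AD and Sham (adjusted p = 0.272). Without AD-HFD-3 and AD-HFD-4, the difference was 2.76 between AD-HFD and AD (adjusted p = 0.0439) and 0.42 between AD-HFD and Sham (adjusted p = 0.681). The part of choroid plexus tissue in the Fmod differences was not tested.

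Osteoglycin (Ogn, also called mimecan), a small member that carries keratan sulfate in some tissues, was at 23.0, 11.5, 4.38 and 32.8 CPM in the AD-HFD libraries, at 6.96, 10.6, 2.46 and 2.39 CPM in the AD libraries, and at 6.16, 31.3, 12.0 and 11.4 CPM in the Sham libraries. The groups overlapped, with the lowest values in AD-3 and AD-4 and the highest in AD-HFD-4 and Sham-2. The means were 17.9 ± 12.5 CPM in AD-HFD, 5.62 ± 3.98 CPM in AD and 15.2 ± 11.1 CPM in Sham (SD, n = 4 each). No comparison passed: the log2 fold change was -1.43 ± 0.68 in AD against Sham (adjusted p = 0.222), 1.67 ± 0.68 in AD-HFD against AD (adjusted p = 0.126) and 0.24 ± 0.65 in AD-HFD against Sham (adjusted p = 0.803). For AD against Sham, Ogn had -0.82 without Sham-2 (adjusted p = 0.513), -0.67 without the triple (adjusted p = 0.719) and -2.63 with AD-3 alone (adjusted p = 0.250). With AD-3 alone, AD-HFD exceeded AD by 2.85 (adjusted p = 0.722). Without AD-HFD-3, both Ogn (1.99, adjusted p = 0.0363) and Fmod (2.37, adjusted p = 0.0322) were called higher in AD-HFD than in AD.

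Osteomodulin (Omd, also called osteoadherin), best known from bone, was the member with the fewest counts, 8 to 75 per library. It was at 0.657, 0.988, 0.250 and 1.73 CPM in the AD-HFD libraries, at 1.28, 1.14, 0.246 and 0.871 CPM in the AD libraries, and at 0.760, 2.40, 0.817 and 1.24 CPM in the Sham libraries. The lowest values were those of AD-3 and AD-HFD-3, and the groups overlapped throughout. The log2 fold change was -0.56 ± 0.58 in AD against Sham (adjusted p = 0.595), 0.03 ± 0.61 in AD-HFD against AD (adjusted p = 0.977) and -0.53 ± 0.58 in AD-HFD against Sham (adjusted p = 0.501). With AD-3 as the sole AD library, Omd differed by 1.85 between AD-HFD and AD (adjusted p = 0.722) and by -2.39 between AD and Sham (adjusted p = 0.276).

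Asporin (Aspn), named for its stretch of aspartate residues and known as an inhibitor of TGF-beta in cartilage, had 19 to 147 counts per library. It was at 0.855, 1.27, 0.844 and 4.89 CPM in the AD-HFD libraries, at 1.11, 0.642, 0.585 and 0.834 CPM in the AD libraries, and at 0.555, 1.66, 0.714 and 0.804 CPM in the Sham libraries. AD-HFD-4 was above all others, and the remaining AD-HFD libraries lay within the joint range of AD and Sham. The log2 fold change was 1.31 ± 0.60 in AD-HFD against AD (adjusted p = 0.165) and 1.07 ± 0.59 in AD-HFD against Sham (adjusted p = 0.178). In AD against Sham it was -0.25 ± 0.65 (adjusted p = 0.854). Without AD-HFD-4, the Aspn difference was 0.34 against AD (adjusted p = 0.665) and 0.09 against Sham (adjusted p = 0.894). Without the triple it was 1.69 in AD-HFD against Sham (adjusted p = 0.191).

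Some libraries were high or low in nearly the whole family. Sham-2 had the highest level among the Sham libraries for 8 of 8 members. AD-HFD-3 had the lowest among the AD-HFD libraries for 7 of 8, with Bgn as the exception. AD-HFD-4 had the highest AD-HFD level for 6 of 8, with Fmod and Prelp highest in AD-HFD-1. The summed level of the 8 genes was 247.7, 302.5, 142.7 and 624.9 CPM in the AD-HFD libraries, 54.8, 83.7, 135 and 47.9 CPM in the AD libraries, and 77.2, 208.6, 116.5 and 105.9 CPM in the Sham libraries. Every AD-HFD sum was above every AD sum, although AD-HFD-3 exceeded AD-3 by little, and AD-HFD and Sham overlapped through AD-HFD-3 and Sham-2.

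The make-up of the family also differed between the groups, and these shares are descriptions without a test. Dcn took 23.1, 34.4, 27.8 and 39.4% of the 8 genes' counts in the AD-HFD libraries, 23.0, 23.2, 15.5 and 28.8% in the AD libraries, and 8.48, 13, 7.56 and 19.1% in the Sham libraries. All AD-HFD shares and 3 of 4 AD shares of Dcn were above the highest Sham share, although the Dcn levels of AD and Sham differed by less than the SE. Prelp took 22.8, 17.7, 18.8 and 8.34% in the AD-HFD libraries, 21.9, 15.4, 16.9 and 17.4% in the AD libraries, and 36.9, 28.0, 36.5 and 28.9% in the Sham libraries. Every Prelp share in AD-HFD and AD was below every Sham share, also in AD-HFD libraries whose Prelp level was within the Sham range. The Fmod share was 6.24 ± 7.41% in AD-HFD, 5.59 ± 3.15% in AD and 14.7 ± 6.30% in Sham, and that of Bgn was 35.6 ± 8.74% in AD-HFD, 38.6 ± 14.8% in AD and 25.2 ± 5.92% in Sham (SD, n = 4 each). Because the shares of a library sum to the whole, a higher share of one gene lowers those of the others. The shares rest on 1320 counts of the 8 genes in AD-4 at the least and 18784 in AD-HFD-4 at the most.

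**Figure D3:**
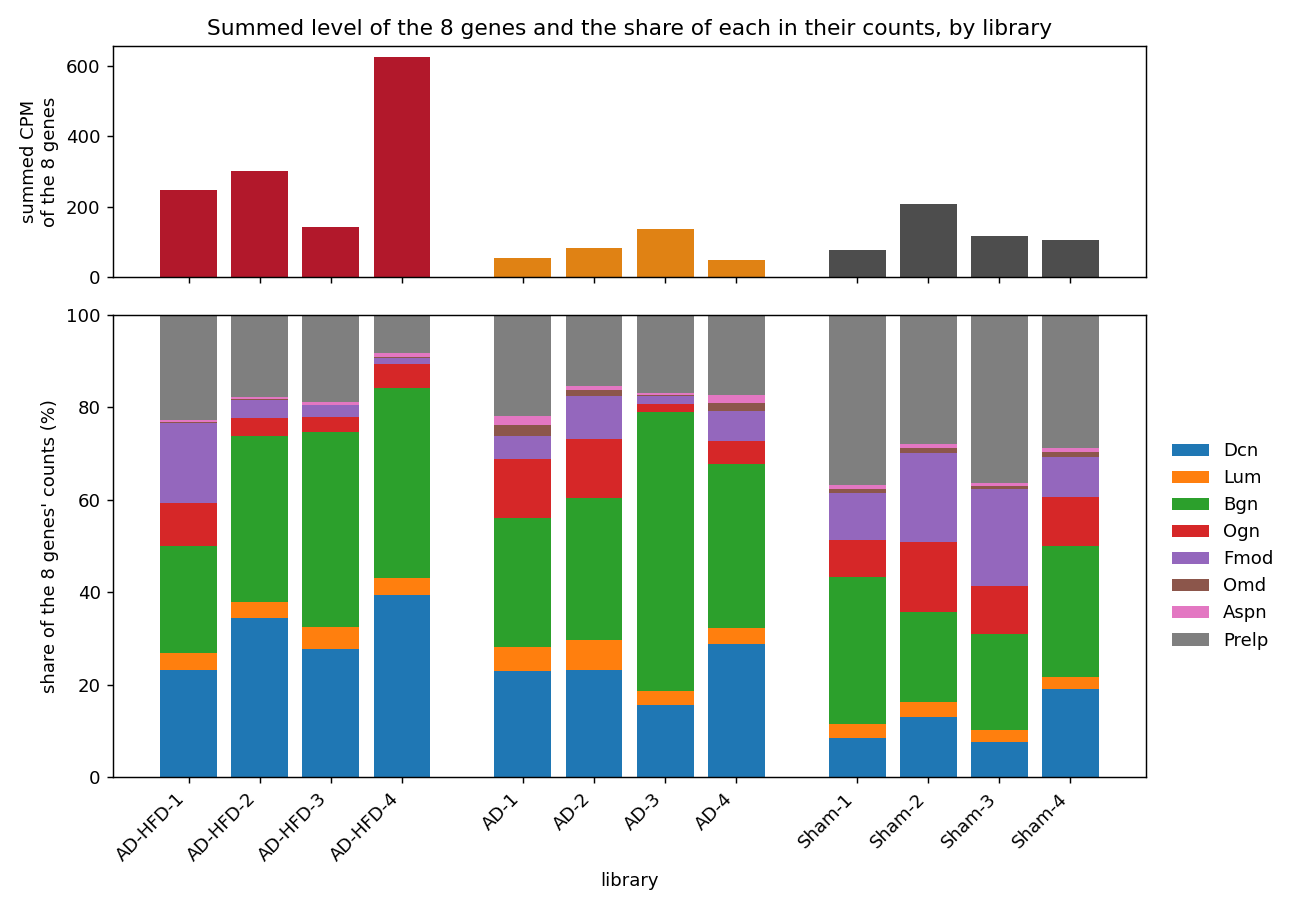
Summed level of the 8 members in CPM (upper bars) and the share of each member in their counts in percent (lower bars) for each of the 12 libraries, in the order AD-HFD, AD and Sham. AD-HFD-4 has the highest sum, 624.9 CPM, and the Prelp share is 28.0% or more in every Sham library and 22.8% or less in every other library.

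The members were set beside 20 markers of leptomeningeal fibroblasts that are not members. The 20 markers were found in the libraries, with a mean log2 CPM of 3.12 to 5.69 in AD-HFD, 2.04 to 2.75 in AD and 2.62 to 3.76 in Sham. Their summed level was 331 to 2044 CPM in AD-HFD, 139 to 317 CPM in AD and 178 to 863 CPM in Sham. Igf2 gave 396 CPM of the sum in Sham-2, 256 CPM in Sham-3 and 334 CPM in AD-HFD-1, and 10.2 to 86.5 CPM elsewhere. Igfbp2 gave 213, 180 and 258 CPM in these libraries, and 19.3 to 81.9 CPM elsewhere. The same libraries held the most Ttr. In AD-HFD against Sham 12 of 20 rose and 0 fell, where 19.7% of all tested genes rose, and the median log2 fold change of the 20 was 2.05. The 12 were Foxc2, Foxc1, Mgp, Aldh1a2, Tbx18, Slc47a1, Thbd, Col1a1, Col1a2, Col3a1, Fbln1 and Crabp2. Foxc1, a transcription factor needed in mice for the meninges to form, rose by 2.97 ± 0.64 (adjusted p = 0.00685). Col3a1, a chain of fibrillar type III collagen, rose by 3.02 ± 0.64 (adjusted p = 0.00639). The count was 6 without Sham-1, without Sham-3, without AD-HFD-4, or without AD-HFD-3 and AD-HFD-4.

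The markers included 5 transporters, of which Slc47a1 rose in AD-HFD against Sham (2.57 ± 0.84, adjusted p = 0.0370) and the other 4 did not pass. Slc6a13, a transporter of GABA and taurine, was at 1.02, 5.20, 1.09 and 4.06 CPM in the AD-HFD libraries, at 3.53, 6.53, 0.615 and 2.32 CPM in the AD libraries, and at 4.53, 7.06, 3.81 and 3.55 CPM in the Sham libraries. Slc6a13, Slc22a6 and Slc22a8 had negative log2 fold changes in AD-HFD against Sham that did not pass, of -0.74 ± 0.63, -1.03 ± 0.86 and -1.11 ± 0.64. Slc13a4 averaged 26.4 ± 21.8 CPM in AD-HFD and 25.8 ± 23.2 CPM in Sham (SD, n = 4 each), a difference of 0.03 ± 0.75. Between AD and Sham 0 of the 20 markers were called, with a median of -0.37 and 4 at an unadjusted p under 0.05. Of all tested genes, 24% were past that threshold. DESeq2 called 1 higher and 2 lower there. In AD-HFD against AD 0 were called by edgeR, with a median of 2.42 and 16 at an unadjusted p under 0.05, all higher. Of all tested genes, 17.1% were past that threshold and higher. In that comparison DESeq2 called 15 higher, while it called 9.43% of all its tested genes higher. There edgeR called 13 with AD-3 dropped and 15 with AD-HFD-3 dropped, all higher. The share of all genes called in these 2 fits is not given here.

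Ranked by the mean level of these markers, AD-HFD-4 was the highest library and also had the most Dcn, Lum, Bgn, Ogn and Aspn. In AD-HFD-1 and Sham-2 the marker means were 3.82 and 3.76, and Dcn was at 57.1 and 27.1 CPM. Both libraries were high in the markers Igf2 (334 and 396 CPM) and Igfbp2 (258 and 213 CPM), so their fibroblast content was not shown to be equal. The part of the amount of meningeal tissue in the Dcn, Lum and Bgn differences was not tested.

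**Figure D4:**
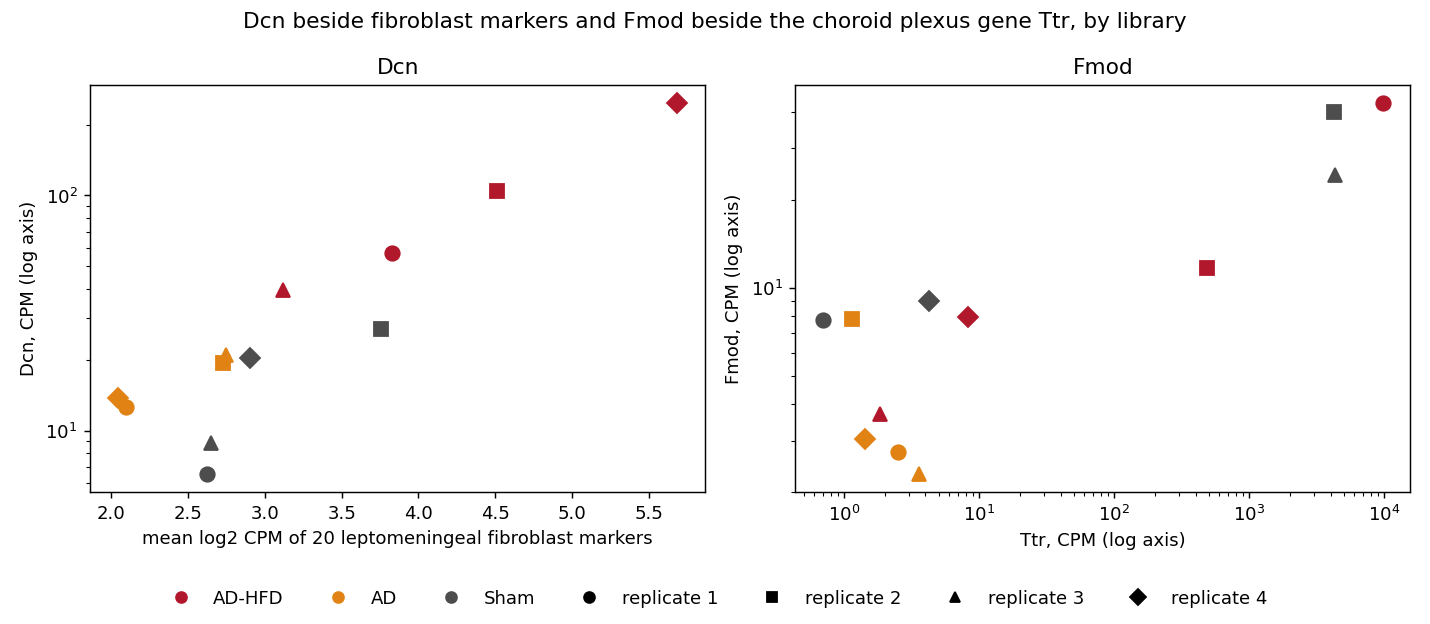
Left, Dcn in CPM (log axis) against the mean log2 CPM of 20 leptomeningeal fibroblast markers; right, Fmod in CPM against the choroid plexus gene Ttr in CPM (both log axes), each point 1 of the 12 libraries, coloured by group. The 4 AD-HFD libraries hold the highest Dcn values, 39.6 to 246 CPM, while the highest Fmod values, 42.7, 40.0 and 24.4 CPM, are those of AD-HFD-1, Sham-2 and Sham-3, which also hold the most Ttr.

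Markers of other cells that border the meninges or vessels moved in the same comparison. In AD-HFD against Sham, 5 of 6 endothelial, 4 of 6 smooth muscle, 5 of 9 pericyte, 6 of 6 border macrophage and 6 of 6 red blood cell markers rose and none fell. Over all tested genes, 19.7% rose. The pericyte markers did not move as one, as 6 of the 9 had a positive log2 fold change. Rgs5 was at 19.4 to 28.0 CPM in AD-HFD and 30.6 to 37.5 CPM in Sham. Atp13a5 was at 3.38 to 5.66 CPM in AD-HFD and 6.63 to 7.92 CPM in Sham, and neither gene was called. Without Sham-1 or without AD-HFD-4, 3 of the endothelial markers rose. The mean log2 CPM of the endothelial markers was 4.50 to 8.04 in AD-HFD, 4.73 to 5.11 in AD and 4.47 to 4.91 in Sham, and that of the red blood cell markers was 2.89 to 6.81 in AD-HFD, 3.07 to 4.13 in AD and 2.25 to 3.27 in Sham. Of 11 choroid plexus markers none was called by edgeR in the 3 comparisons, though 8 in each comparison with AD had an unadjusted p under 0.05. In AD against Sham these were all lower, where 24% of all tested genes were past that threshold in either direction. In AD-HFD against AD they were all higher, where 17.1% were past it and higher. DESeq2 called 6 lower in AD against Sham, where its share over all genes is not given here. It called 6 higher in AD-HFD against AD, beside 9.43% of all its tested genes. These markers had summed levels of 25.8 to 10626 CPM in AD-HFD, 11.8 to 27.9 CPM in AD and 5.58 to 4776 CPM in Sham. The part of vessels, blood or macrophages in the member results was not tested.

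Among 10 further genes of the family or its near relatives, 9 were in the table and 6 were tested. Tsku (tsukushi), a secreted relative that binds BMP and Wnt signals, rose in AD-HFD against Sham, at 20.5 ± 4.43 CPM in AD-HFD and 3.55 ± 2.15 CPM in Sham (SD, n = 4 each; 2.53 ± 0.72, adjusted p = 0.0207). It was the sole call among the 6, it was lost without Sham-1 or Sham-4, and 2 of the 6 rose without AD-HFD-3. In the AD libraries Tsku was at 4.92, 3.79, 40.1 and 6.82 CPM, with AD-3 above all other libraries. Chad (chondroadherin), a cartilage protein that binds integrins, was at 0.164, 0.0637, 0.375 and 0.166 CPM in the AD-HFD libraries and at 2.08, 3.71, 0.185 and 2.58 CPM in the AD libraries. That difference of -3.44 ± 0.72 did not pass (adjusted p = 0.0605), and neither did the one between AD and Sham (2.22 ± 0.63, adjusted p = 0.0551). Ecm2, next but one to Aspn in gene order, was at 9.47, 1.82, 0.782 and 1.13 CPM in the AD-HFD libraries, at 3.95, 2.68, 0.615 and 2.03 CPM in the AD libraries, and at 2.05, 8.12, 5.44 and 1.81 CPM in the Sham libraries. Its 3 highest libraries were the 3 highest in Fmod. Kera, the corneal keratan sulfate proteoglycan beside Lum, had 0 counts in all 12 libraries, which allows a level of up to 0.0875 to 0.109 CPM per library at 3 counts.

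The members varied together to different degrees, given here as a description over 12 libraries that share group and tissue differences. Pearson's r of each member with the mean profile of the other 7 (log2 CPM, centred and scaled) was 0.84 for Ogn, 0.83 for Lum, 0.75 for Dcn, 0.74 for Aspn, 0.73 for Prelp, 0.64 for Bgn, 0.51 for Fmod and 0.37 for Omd. The 10 other genes whose profile was most like the mean of the 8 were Mpzl2 (0.949), Rgl3 (0.945), Nadk (0.930), Tbc1d2 (0.930), Frk (0.921), RT1-Db1 (0.917), Cped1 (0.916), Rassf9 (0.915), Leprot (0.915) and Gprc5c (0.911). With the group means removed, r for these 10 was 0.851 to 0.949. Of the 10, Gprc5c alone was called in AD-HFD against Sham (1.36 ± 0.47, adjusted p = 0.0421), and none was called in the other comparisons.

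Genes that act with the members were examined as lists, and in AD-HFD against AD none of their genes was called by edgeR's quasi-likelihood test. Without AD-3, between 6 and 15 genes rose in each of the first 4 lists below, and without AD-HFD-3 between 6 and 9 did. Genes also fell in these fits. Among the enzymes that build the chains, 5 fell beside 6 that rose without AD-3, and 4 beside 6 without AD-HFD-3. The other lists of these 4 had 0 to 1 falls without AD-3 and 0 to 2 without AD-HFD-3. The number of calls there thus depended on these libraries, and the share of all genes called in these fits is not given here. Of 14 tested genes for matrix that the members bind, 10 rose in AD-HFD against Sham and 0 fell, where 19.7% of all tested genes rose. The median of the 14 was 2.06. The 10 were Col5a3, Fn1, Thbs1, Col1a1, Col1a2, Col5a2, Col3a1, Eln, Col6a2 and Col12a1. Fn1 (fibronectin) rose by 3.55 ± 0.57 (adjusted p = 0.00289) and Eln (elastin) by 3.54 ± 0.63 (adjusted p = 0.00368). Between AD and Sham 0 of the 14 were called, with 5 at an unadjusted p under 0.05 and 3 called higher by DESeq2. Of all tested genes, 24% had an unadjusted p under 0.05 there. Col1a1, Col1a2 and Col3a1 also stand among the fibroblast markers.

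Of 29 genes for enzymes that build the chondroitin, dermatan or keratan sulfate chains, 8 rose and 2 fell in AD-HFD against Sham, with a median of -0.17, where 19.7% of all tested genes rose and 32.7% were called in either direction. Those that rose were B3gnt2, Chst3, Dse, Csgalnact2, Chsy1, B4galt4, Chst14 and B4galt1, and those that fell were Chsy3 and B3gat3. Dse forms the iduronate of the dermatan sulfate found on decorin and biglycan, and Chst14 sulfates the galactosamine unit beside it. Dse and Chst14 rose by 1.90 ± 0.47 (adjusted p = 0.0118) and 1.97 ± 0.54 (adjusted p = 0.0184). B3gat3, an enzyme of the linker on which chondroitin and dermatan sulfate are built, fell by 0.61 ± 0.16 on the log2 scale (adjusted p = 0.0166). Chsy3, a chondroitin synthase, fell by 1.23 ± 0.36 on the log2 scale (adjusted p = 0.0222). Leaving out Sham-1 or Sham-4 gave 1 fall, leaving out AD-HFD-3 gave 5 falls, and without Sham-4 the count of rises was 5. Against Sham, AD libraries showed a rise of Chst3 (1.11 ± 0.25, adjusted p = 0.0266), and Csgalnact1 fell by 0.67 ± 0.16 on the log2 scale (adjusted p = 0.0299). None of the 29 was called without Sham-1 or Sham-4, 0 fell without Sham-2, Sham-3, AD-2 or AD-4, and 3 rose and 3 fell without AD-3.

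Of 20 genes for growth factors and receptors that the members bind or act on, 12 rose in AD-HFD against Sham, where 19.7% of all tested genes rose. The median of the 20 was 1.21. The 12 were Bmp2, Tlr2, Kdr, Tgfbr2, Tgfbr1, Tlr4, Igf1r, Cd44, Tgfb1, Bmp7, Tgfbr3 and Cd14. Erbb4 fell by 1.21 ± 0.35 on the log2 scale, a call lost without Sham-1, Sham-4, AD-HFD-1 or AD-HFD-4. Tlr2 and Tlr4, the receptors of soluble biglycan, rose by 2.29 ± 0.39 (adjusted p = 0.00322) and 2.10 ± 0.39 (adjusted p = 0.00397). Tgfb1, bound by decorin, rose by 3.45 ± 0.66 (adjusted p = 0.00436). In AD against Sham, Cd14, a co-receptor of these TLRs, was the sole call (4.89 ± 1.00, adjusted p = 0.019), and it was lost when any 1 of Sham-1, Sham-3 and Sham-4 was dropped, whereas 2 rose without AD-1, AD-2 or AD-HFD-3.

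Of 14 genes for enzymes that cleave or process the members or crosslink their collagen, 12 rose in AD-HFD against Sham and 0 fell. Over all tested genes, 19.7% rose. The median of the 14 was 2.88. The 12 were Mmp14, Adamts1, Adamts4, Mmp12, Mmp9, Mmp3, Bmp1, Tll1, Mmp13, Adamts5, Lox and Loxl1. Lox, the lysyl oxidase that crosslinks collagen, rose by 5.62 ± 0.97 (adjusted p = 0.00333). Bmp1, which removes the propeptide of biglycan, rose by 1.16 ± 0.32 (adjusted p = 0.0182). Mmp13 had no counts in any Sham library and was at 0.953, 4.37, 2.09 and 26.2 CPM in the AD-HFD libraries, AD-HFD-4 being the highest. In AD-HFD it was at least 343-fold higher than a Sham level of 3 counts summed over the group, and at least 103-fold higher without AD-HFD-4. With that bound the list's median was again 2.88. In AD against Sham, Adamts1 (3.44 ± 0.85, adjusted p = 0.0367), Adamts4 (1.86 ± 0.34, adjusted p = 0.011) and Lox (3.97 ± 0.92, adjusted p = 0.0284) rose, and 1 of the 14 was called when any 1 Sham library was left out.

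A further list held proteoglycans and link proteins of the brain's own matrix, with the glycoproteins Tnr and Sparcl1. Most of these are made by neurons and glia. Of 15 tested, 1 rose and 4 fell in AD-HFD against Sham, with a median of -0.11. Over all tested genes 19.7% rose and 32.7% were called in either direction, so the number of calls in this list was near that share. Vcan (versican) rose by 1.21 ± 0.22 (adjusted p = 0.00397). Hapln1 fell by 1.88 ± 0.47 (adjusted p = 0.0125), Cspg5 by 1.25 ± 0.31 (adjusted p = 0.0126), Bcan by 1.11 ± 0.36 (adjusted p = 0.0336) and Hapln4 by 1.76 ± 0.58 (adjusted p = 0.0371), all on the log2 scale. The count of falls was 2 without any 1 Sham library or without AD-HFD-1, and 7 without AD-HFD-3. In AD against Sham, Hapln1 alone was called and fell by 1.74 ± 0.47 on the log2 scale (adjusted p = 0.048), and 0 fell in 9 of the 12 fits that left out 1 library. Without Sham-2, Sham-3 and AD-HFD-1 all of these lists had 0 calls in AD-HFD against Sham, where 7 genes were called over all genes tested. Of 11 markers of cortical neurons 2 fell in AD-HFD against Sham, with a median of -1.52 and 0 positive log2 fold changes. In AD against Sham 5 of the 11 fell, with a median of -2.61. Of 10 thalamic markers 8 rose and 1 fell there, with a median of 3.77. In AD against Sham 6.23% of all tested genes were called in either direction. The part of the region sampled was not tested.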

How the data were processed

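RNA-seq libraries of brain tissue were made from TRIzol-extracted RNA with a Yeasen dual-mode mRNA kit, per the labels' protocols. The table deposited by the authors holds raw counts per gene. FastQC and Trimmomatic were used, per the submitters' processing notes. Aligner, counter, strandedness, build and annotation are not given in the sources used here. Groups and replicate numbers were read from the titles. Unnamed new loci made up 9127 rows and 2.24% to 3.29% of the counts per library, and they stayed in the library sizes and tests.

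The analysis used edgeR 4.0.16 under R 4.3.3, with filterByExpr on the groups, TMM scaling, and 1 quasi-likelihood model (non-legacy) with a mean per group over all 12 libraries. P-values were adjusted by Benjamini-Hochberg over all 18850 genes, and genes were called at an adjusted p under 0.05. The SE is the size of the log2 fold change divided by the square root of F. Mean log2 CPM used a prior count of 2. The fit was tested on simulated data. Alternatives were DESeq2 1.42.0, limma 3.58.1 (voom), the legacy method, other scalings, filters and thresholds, the compared groups alone, the replicate number as a block, and fits without single or several libraries. Filtering and scaling were repeated whenever libraries were left out.

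The members, the gene lists and the tests were chosen with earlier results of these data known. Named were all members, the called genes of each list with values for up to 4, and the 10 genes of at least 1 CPM most like the mean member profile; not every gene the rule takes is printed. The listed symbols Podn, Col6a3, Gpc5, Pecam1, Hbb-b1 and Neurod2 were not analysed here. Transcript lengths were not used, so levels are not compared between genes. No library pair of a group agreed within sampling noise (chi-square per gene 18.7 to 497). Floors cover counting error only.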

Additional observations from a re-analysis of the deposited data

Results flagged for a closer look

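Of 96 groups of 4 values examined (levels and shares of the members and list means), 7 had 1 library far from the other 3, by Dixon's test for a gap at the end of the range. Such gaps also occur by chance in a small share of groups. For Lum, Sham-2 was highest at 6.68 CPM, where the next Sham library was at 2.99 CPM. For Bgn, AD-3 was highest at 81.6 CPM, where the next AD library was at 25.8 CPM. For Fmod, AD-2 was highest at 7.79 CPM, where the next AD library was at 3.05 CPM. For Aspn, AD-HFD-4 was highest at 4.89 CPM, where the next AD-HFD library was at 1.27 CPM. For Prelp, AD-HFD-3 was lowest at 26.9 CPM, where the next AD-HFD library was at 52.1 CPM. The Fmod share of the members' counts was 17.2% in AD-HFD-1 and 3.87% in the next AD-HFD library. The mean log2 CPM of the 6 other tested relatives of the family was 0.62 in AD-3, the lowest AD library, and 1.38 in the next.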

How the results depend on the processing

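With 4 libraries per group, calls turned on single libraries and on the tool. Single-member results kept direction and side of the threshold in 567 of the repeats, 28 passed newly, 23 lost their call and 30 changed sign, none of them called in either fit. For AD against Sham, 1174 genes and 1 member were called, against 2602 and 2 by DESeq2, 2363 and 2 with the compared groups alone, 2343 and 2 at adjusted p under 0.1, and 198 and 0 at 0.01. For AD-HFD against AD, 2 genes and 0 members were called, against 3311 and 5 by DESeq2, 0 genes with the compared groups alone, 3422 and 4 at 0.1, and 0 genes at 0.01. For AD-HFD against Sham, 6162 genes and 3 members were called, against 2174 and 1 at 0.01. Leaving out 1 library at a time gave 302 to 2329 genes and 0 to 2 members for AD against Sham, 0 to 5841 and 0 to 6 for AD-HFD against AD, and 3514 to 8615 and 1 to 3 for AD-HFD against Sham. The cause was not tested.

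The remaining library choices were made after seeing the data. With AD-1, AD-2 and AD-4 left out, where the lone AD-3 is assumed to vary like the other groups, 0 members were called for AD against Sham and 0 genes for AD-HFD against AD. Without AD-HFD-3 and AD-HFD-4, the AD against Sham fit called 2801 genes and 2 members, and AD-HFD against AD called 1896 and 3. Without Sham-2, Sham-3 and AD-HFD-1, with 2 Sham libraries left, the calls were 49 genes and 0 members in AD against Sham, 0 genes in AD-HFD against AD, and 7 genes and 0 members in AD-HFD against Sham.

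Libraries with the same replicate number did not deviate together over all genes (r of -0.32 to 0.0947). Differences in thalamic, choroid plexus and blood genes between libraries of a group could hide a pairing, so these values cannot show whether the numbers pair libraries. A replicate block gave 851 genes and 0 members in AD against Sham, 5 genes and 0 members in AD-HFD against AD, and 5156 genes and 3 members in AD-HFD against Sham. With the block, Prelp in AD against Sham had an adjusted p of 0.0504. Scalings moved the median of all genes by at most 0.101 (log2). The counts behind Omd, 8 to 75 per library, were the fewest of any member.

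The changes of sign were in log2 fold changes within their SE of 0. For Omd in AD-HFD against AD (0.03), the value was -0.00142 by DESeq2, -0.0346 by limma voom, -0.0467 with upper quartile scaling, -0.0125 with no low-count filter, -0.0194 with the compared groups alone, -0.0066 with the replicate block and -0.0923 with AD-HFD-3 and AD-HFD-4 both absent; with 1 library left out it ran between -0.48 and 0.35. For AD against Sham, Lum (-0.05) had 0.0129 with the replicate block, 0.16 with AD-3 as the sole AD library, 0.47 without Sham-2, Sham-3 and AD-HFD-1, and -0.32 to 0.38 with 1 library left out. Bgn (0.22) had -0.0867 by limma voom and -0.63 to 0.48 with 1 library left out, Aspn (-0.25) had 0.17 without Sham-2, Sham-3 and AD-HFD-1 and -0.42 to 0.16, and Dcn (0.09) had -0.13 to 0.46. For AD-HFD against Sham, Fmod (-0.30) had -1.38 to 0.20 with 1 library left out and 0.42 with AD-HFD-3 and AD-HFD-4 both absent, and Ogn (0.24) had -0.23 to 0.79.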
